A study of Mus musculus with 24 samples.

Results

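The Usp17 (Dub) genes of the mouse were followed in embryonic stem (ES) cells of 6 genotypes. The family is represented by the 4 gene entries with the symbols Usp17l5, Dub1, Dub2a and Dub3, out of 37310 entries in each of 2 expression tables, and these 4 were chosen by symbol alone. Each of the 4 symbols was found once in each table. Dub1a, a further coding gene of the family, lies outside that choice and is given by its values, and the pseudogene Usp-ps had no read in any sample.

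RNA was sequenced from ES cells grown without feeders on gelatin, in serum with LIF, the cytokine that keeps ES cells undifferentiated. Wild-type cells (WT) were set beside cells without Smchd1 (Smchd1 KO), without Dux (Dux KO) and without both (Double KO), and a triple knockout of the Tet genes (Tet TKO) was set beside a Tet triple knockout that also lacks Smchd1 (quad KO). Each genotype had 3 biological replicates, and those of WT and Smchd1 KO were each sequenced in 2 runs, which gave 24 libraries. The labels give neither the strain and sex of the cells, nor the way each knockout was made, nor how many clones stand behind a genotype. WT, Dux KO, Smchd1 KO and Double KO are in the first table, the Tet TKO and quad KO cells are in the second, and because these were scaled separately no comparison crosses them.

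USP17 proteins are deubiquitinases, cysteine proteases of the USP class that take ubiquitin off other proteins and so can spare them from degradation or change their activity. Dub1 and Dub2 were first described in blood cells, as genes switched on early by cytokines. In ES cell cultures, Usp17 transcripts are known as part of the gene programme of the 2-cell embryo, which rare ES cells re-enter. DUX, a homeobox protein, activates this programme, SMCHD1 is a chromatin protein that represses gene clusters, and the TET enzymes oxidise 5-methylcytosine.

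The family genes lie in a single region of chromosome 7, in the order Dub2a, Usp17l5, Dub3, Dub1a, Dub1. Reference windows around the annotated starts, from 250 bases before to 50 after, were found for 4 of the 5 coding genes, listed there as Usp17ld (Dub2a), Usp17lc (Usp17l5), Usp17lb (Dub1a) and Usp17la (Dub1). Each window contains a stretch of 130 bases that ends at a TATA-type box. The stretches are shown because these genes moved together in these data, and a reader can see how much of the DNA upstream of the box they share. They come from RefSeq on build GRCm38.p6 and run 5′ to 3′ on the strand of the gene. Capitals mark the runs of at least 12 bases that all 4 stretches share, and the 8 bases of the box.
Dub2a, chr7:103252608-103252737, minus strand: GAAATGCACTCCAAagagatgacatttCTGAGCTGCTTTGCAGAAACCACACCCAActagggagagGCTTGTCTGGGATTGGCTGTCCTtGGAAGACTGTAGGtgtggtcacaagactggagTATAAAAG
Usp17l5, chr7:103416486-103416615, plus strand: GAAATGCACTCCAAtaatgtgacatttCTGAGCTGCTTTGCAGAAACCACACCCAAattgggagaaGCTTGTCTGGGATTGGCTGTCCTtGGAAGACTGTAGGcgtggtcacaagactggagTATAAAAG
Dub1a, chr7:104842607-104842736, minus strand: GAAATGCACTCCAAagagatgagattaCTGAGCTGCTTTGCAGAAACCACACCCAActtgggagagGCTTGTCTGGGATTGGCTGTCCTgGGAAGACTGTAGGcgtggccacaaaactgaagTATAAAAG
Dub1, chr7:104856848-104856977, plus strand: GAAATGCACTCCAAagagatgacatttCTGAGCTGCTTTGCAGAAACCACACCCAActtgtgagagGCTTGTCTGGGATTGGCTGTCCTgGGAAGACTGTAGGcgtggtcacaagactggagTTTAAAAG

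The shared runs were 14, 29, 23 and 13 bases long, and the identity between 2 stretches was 90.9% to 96.2% over the 6 pairs. The box ended 102 bases before the annotated start in Dub2a, 80 in Usp17l5, 38 in Dub1 and 23 in Dub1a, so its distance to the annotated start differs between these genes. Searched on both strands of the 300-base windows, the TATA box core TATAAA was found in 3 of the 4, against 13.6% of 32851 windows of the same kind. The exception was Dub1, whose box reads TTTAAAAG. The CCAAT motif was found in all 4, against 37.4% of all windows, and it lies inside the 23-base shared run, where it reads ATTGG on the strand of the gene. The core GATTNAATC of the palindrome known to be bound by mouse DUX was found in 0 of the 4 windows and in 0.268% of all windows. A match or a missing match describes the letters of this window and nothing else.

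The transcripts are also alike. Over 10 pairs of the 5 coding genes, identity of the coding sequence was 79.6% to 98.4%, and it was highest between Usp17l5 and Dub2a. Of the 50-base words in the transcripts of Usp17l5, 44.7% also occurred in another gene, and the share was 51.1% for Dub2a, 29.8% for Dub3, 21.4% for Dub1a and 19.3% for Dub1. Of the words of Dub2a, 50.4% occurred in Usp17l5, and of those of Usp17l5, 41.5% occurred in Dub2a. How reads that match several copies were assigned is not given in the sources used here, so the split of reads between Usp17l5 and Dub2a is uncertain, and the rise or fall of one can include reads of the other.

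Gene reads per library ran from 11.4 to 74.4 in the first table, in units of 1e6 reads, and in the second table from 27.3 to 34.6. The targeted gene Smchd1 was at 203 to 207 CPM in WT and 174 to 213 in Dux KO, against 46.2 to 76.5 in Smchd1 KO and 71.0 to 87.9 in Double KO. Tet TKO cells had 151 to 161 CPM of it, and the 3 quad KO samples had 18.1, 12.2 and 40.02 CPM. CPM is a count scaled to 1e6 reads of a library. The Dux transcript was under the filter on low values and not tested. It had 20 reads in WT (0.041 to 0.141 CPM) and 131 in Smchd1 KO. Dux KO replicate 1 had 6 reads (0.447 CPM) and Double KO replicate 2 had 4 reads (0.245 CPM), above every WT sample, and the other samples of both genotypes had 0. For these 2 libraries the transcript goes against the label, and the labels do not say which part of the gene was deleted. Dux KO and Double KO therefore mean the libraries labelled so. Without Dux KO replicate 1 the number of family members called was unchanged in each comparison of the first table, and without Double KO replicate 2 it was unchanged except in Double KO against WT, where 2 were called in place of 3. ES cell markers were present in all 6 genotypes, with 9 of 9 entries at a mean of at least 0.5 CPM in each. In quad KO against Tet TKO, however, 6 of 9 fell and 1 rose, and 4 of 7 tested fibroblast markers rose. Of all tested genes, 20.6% fell and 17.1% rose in that comparison. The noise ratio was 1.28 to 2.73 between WT libraries of different samples and 2.15 to 2.54 between runs of 1 sample. These ranges overlap, so the spread of WT may be technical. The main fit pooled the spread of all 4 genotypes of the first table, so p-values against WT rest on the WT spread only in part. Outside WT the samples lay further apart, with a lowest noise ratio of 3.29 for Smchd1 KO, 16.5 for Dux KO and 17.8 for Double KO. In 4 samples (Smchd1 KO 2, Dux KO 2, Dux KO 3 and Double KO 3) the genes of 1 or 2 whole chromosomes were shifted by more than 0.4 on the log2 scale. All 3 quad KO samples had smaller shifts from Tet TKO. They lay at -0.213 to -0.289 on chromosome 6, -0.179 to -0.279 on chromosome 8 and -0.205 to -0.226 on X. The 3 Dux KO samples lay 0.157 to 0.199 above WT on chromosome 1. A shift carried by every sample of a genotype cannot be told apart from the genotype. None of the shifted chromosomes was chromosome 7, where the medians of all samples lay between -0.035 and 0.040.

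All 4 genes were low in WT and several times higher in Smchd1 KO. Usp17l5 was at 1.02, 0.943 and 0.841 CPM in the 3 WT samples and at 10.3, 10.5 and 5.63 CPM in the 3 samples of Smchd1 KO. Dub3 had 1.43, 1.32 and 1.09 CPM in the WT samples, against 8.69, 7.53 and 4.71 CPM with Smchd1 lost. The WT and Smchd1 KO samples did not overlap for either gene, and replicate 3 was the lowest of the Smchd1 KO samples for both. How many of all genes separate in this way was not counted. A limma fit to these 2 genotypes alone called 6763 of 15346 genes, so such separation is not shown to be particular to the family. Dub1 had 0.761, 0.518 and 0.436 CPM in the WT samples, against 4.60, 4.58 and 2.49 CPM with Smchd1 lost. Dub2a was the lowest of the family, with 0.369, 0.248 and 0.328 CPM in the WT samples, against 3.08, 3.0 and 1.47 CPM with Smchd1 lost. Again no Smchd1 KO sample reached down into the WT range. Dub1a, outside the 4, had 0.692 ± 0.237 CPM in WT samples and 5.19 ± 2.15 CPM in those of Smchd1 KO (SD, n = 3 here and throughout). Between 2 runs of 1 sample, the CPM of a family gene differed by a ratio of up to 1.85 in WT and 1.60 in Smchd1 KO.

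In Dux KO and Double KO the family was close to undetected. Usp17l5 had 0 reads in the 3 Dux KO and in the 3 Double KO samples, where 3 reads over a genotype would be a level of 0.0694 and 0.0608 CPM. Dub1 had 0 reads in Dux KO and 2 reads in Double KO, 1 each in replicates 1 and 3. Dub2a had 1 read in Dux KO and 1 in Double KO, and Dub3 had 1 and 3. All 4 genes together had 2 reads in Dux KO and 6 in Double KO, against 651 in WT and 4152 in Smchd1 KO, where the libraries were also deeper. Dub1a had no read in either genotype. These limits cover counting error only.

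In the second table every member was present in both genotypes. Usp17l5 was at 4.14, 3.53 and 3.07 CPM in the 3 Tet TKO samples and at 3.21, 1.13 and 5.31 CPM in those of quad KO. Dub1 had 2.20, 2.25 and 2.08 CPM in the Tet TKO samples, against 1.97, 0.919 and 3.88 CPM in those of quad KO. Tet TKO samples lay close together and quad KO samples on both sides of them, with replicate 2 lowest and replicate 3 highest. Dub2a had 0.848, 0.899 and 0.723 CPM in the Tet TKO samples, against 0.769, 0.353 and 1.54 CPM in those of quad KO. Dub3 had 4.95, 4.77 and 4.43 CPM in the Tet TKO samples, against 3.44, 1.66 and 5.35 CPM in those of quad KO. The order of the quad KO samples was the same for all 4 genes. Dub1a was at 1.65 ± 0.143 CPM in Tet TKO cells, against 1.51 ± 0.868 CPM in the quad KO ones.

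**Figure D1:**
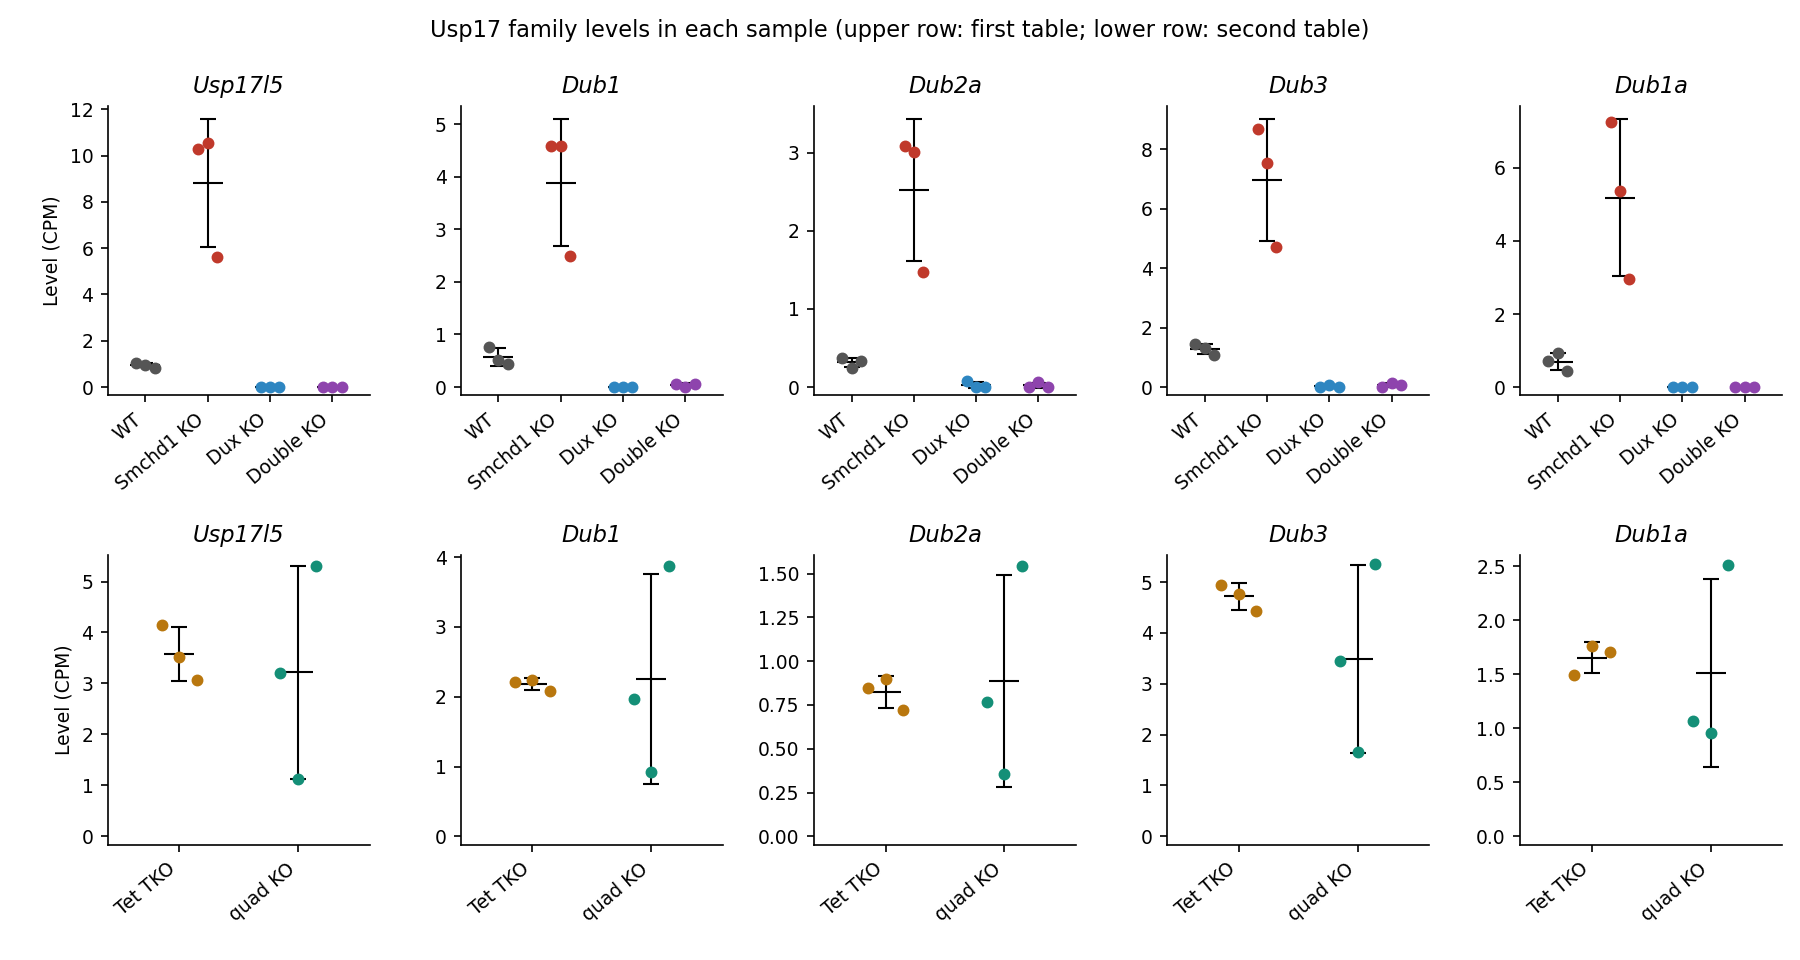
Level in CPM (vertical axis) of each Usp17 family gene (columns) in every sample, with the first table in the upper row and the second in the lower row. Points are biological samples and bars are means with SD. Smchd1 KO stands above WT for every gene, Dux KO and Double KO lie at or near 0, and the quad KO points spread around those of Tet TKO.

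Levels of different genes were compared per kilobase of annotated exon, using GENCODE M21 lengths. In WT, Dub3 was highest at 0.645 ± 0.0891 CPM per kilobase, followed by Dub1a at 0.443 ± 0.152, Usp17l5 at 0.381 ± 0.0363, Dub1 at 0.215 ± 0.0636 and Dub2a at 0.158 ± 0.0311. Dub1a and Usp17l5 did not differ beyond their spread, nor did Dub1 and Dub2a. In Smchd1 KO the top 3 were within their spread of each other, with Usp17l5 at 3.60 ± 1.13, Dub3 at 3.51 ± 1.03 and Dub1a at 3.32 ± 1.38 CPM per kilobase, above Dub1 at 1.46 ± 0.457 and Dub2a at 1.27 ± 0.458. In Tet TKO the order was Dub3 at 2.37 ± 0.134, Usp17l5 at 1.46 ± 0.219, Dub1a at 1.06, Dub1 at 0.820 and Dub2a at 0.414. The order of means in quad KO was the same as in Tet TKO, from Dub3 at 1.75 to Dub2a at 0.447. Dub2a thus had the lowest mean per length in WT, Smchd1 KO, Tet TKO and quad KO, with an SD range that overlapped that of Dub1 in WT and Smchd1 KO. Compared within samples, Dub2a lay below Dub1 in each Smchd1 KO sample (1.55 against 1.73, 1.51 against 1.72, and 0.739 against 0.936). In WT replicate 3 they were level, at 0.165 and 0.164. Of the 50-base words of its transcript 48.9% were unique, against 80.7% for Dub1. The place of Dub2a therefore depends on how reads that match several copies were counted, which is not given.

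Changes were tested with limma on log2(CPM + 0.5), over all genes that reached 0.5 CPM in 3 or more samples of a table, which left 16200 genes for the first table and 14920 for the second. The threshold was a p of 0.05 after Benjamini-Hochberg adjustment over all tested genes. All 4 members entered every test, but Dub2a did so in the first table through the 3 Smchd1 KO samples alone, and the others through WT and Smchd1 KO. Dub1 and Dub1a each reached 0.5 CPM in 5 samples of that table, so both also needed Smchd1 KO samples to pass. Their WT replicate 3 was at 0.436 CPM for Dub1 and 0.450 CPM for Dub1a. For Dub2a, Dub1 and Dub1a, the direction of a change that involves Smchd1 KO was thus in part set by the filter. The added 0.5 makes fitted changes of such low genes smaller than ratios of CPM, so both are given.

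The loss of Smchd1 from otherwise wild-type cells was accompanied by a rise of 4 of 4 members, where 0.648% of all tested genes rose and 0.241% fell. Usp17l5 rose by 2.65 on the log2 scale (95% interval 2.18 to 3.13, adjusted p = 0.000395, limma). It had the smallest p of the 16200 genes. Its Dux KO and Double KO samples, all at 0 reads, added no spread to the fit, which pools the genotypes. The rank of Usp17l5 thus rests in part on genotypes outside this comparison. Dub3 rose by 2.03 (1.56 to 2.51, adjusted p = 0.00125), Dub1 by 2.00 (1.52 to 2.48, adjusted p = 0.00125) and Dub2a by 1.84 (1.35 to 2.33, adjusted p = 0.00161). The median change of the 4 was 2.02, against 0.00 over all tested genes. As ratios of mean CPM, Smchd1 KO over WT was 9.44 for Usp17l5, 7.99 for Dub2a, 6.80 for Dub1 and 5.45 for Dub3. The 95% exact intervals of the pooled reads, which cover counting error only, were 7.90 to 10.7 for Usp17l5 and 4.72 to 6.17 for Dub3 and do not overlap. The test without the filter on low values also called Dub2a (adjusted p = 0.00301, limma) and Dub1. Dub1a, with the same filter limit as Dub1, rose by 2.20 (adjusted p = 0.00161, limma).

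The loss of Dux was accompanied by a fall of 3 of the 4 members below WT, where 1.63% of all tested genes rose and 2.35% fell. The log2 change was -1.77 for Dub3 (adjusted p = 0.00586, limma), -1.52 for Usp17l5 (adjusted p = 0.00835) and -1.09 for Dub1 (adjusted p = 0.0281). Dub2a, at -0.64, did not pass (adjusted p = 0.111). These fitted changes are held down by the added 0.5. WT was at least 13.5-fold higher than Dux KO for Usp17l5 and at least 8.23-fold higher for Dub1, both with the WT mean set against 3 reads over the group. With the counting error of WT included, the exact 95% intervals of these ratios began at 10.97 and 6.51. Against the single reads of Dux KO, the ratio was 55.9 for Dub3 (interval 9.90 to 2207) and 12.7 for Dub2a (2.57 to 593). The median fitted change was -1.30 against -0.03 over all genes, and with members at 0 placed at their bound the median ratio was 13.1-fold lower. The 3 calls rested on all WT samples being present: without WT replicate 1 or 3 none passed, and without WT replicate 2 only 1 did. With a pseudocount of 2 only 1 passed.

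Between Dux KO and Double KO, which adds the loss of Smchd1, 0 of 4 members moved past the threshold with limma, edgeR or DESeq2, where in limma 0.00617% of all tested genes rose and 0.00617% fell (1 gene each, with 1583 genes at an unadjusted p under 0.05). The difference between Double KO and Dux KO was 0.00 on the log2 scale for Usp17l5 and -0.01 for Dub2a. It was 0.10 for Dub3 and 0.11 for Dub1, and the 95% intervals of the 4 lay between -0.50 and 0.59 in limma. On the recovered reads the fitted change was 3.87 with edgeR and 1.68 with DESeq2 for Dub1 and 1.30 with both for Dub3, from 0 against 2 reads and 1 against 3 reads, and none of these passed. On the log2(CPM + 0.5) scale the added 0.5 holds differences between genes near 0 reads close to 0, and smaller differences were not detectable at these read numbers.

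Among cells without Smchd1, the family differed by whether Dux was present. All 4 members fell in Double KO relative to Smchd1 KO, where 1.40% of all tested genes rose and 2.98% fell. The log2 change was -4.17 for Usp17l5 (adjusted p = 1.15e-06, limma), -3.70 for Dub3 (adjusted p = 1.34e-06), -2.98 for Dub1 (adjusted p = 9.95e-06) and -2.49 for Dub2a (adjusted p = 4.98e-05). Smchd1 KO was at least 145-fold higher for Usp17l5 against 3 reads over the group (exact 95% interval from 116), and the ratio was 124 for Dub2a (22.1 to 4903), 115 for Dub3 (38.9 to 554) and 96.2 for Dub1 (26.4 to 792). Against WT, 3 of the 4 members fell in Double KO, where 0.685% of all tested genes rose and 0.889% fell. Dub3 changed by -1.67 (adjusted p = 0.00700), Usp17l5 by -1.52 (adjusted p = 0.0101) and Dub1 by -0.98 (adjusted p = 0.0498), while Dub2a was at -0.65 and did not pass (adjusted p = 0.123). Without any 1 of the WT replicates, 0 of these 3 calls against WT were made, and with a pseudocount of 2 only 1 was. Over alternative settings, the call against WT was made in 9 of 24 for Dub1, 21 of 25 for Usp17l5 and 22 of 25 for Dub3. These comparisons share samples with those above, so their values are set side by side and not read as separate evidence.

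The interaction of both knockouts was the change from Dux KO to Double KO minus that from WT to Smchd1 KO. This difference passed for 4 of 4 members, where 0.154% of all tested genes had a positive and 0.358% a negative difference past the threshold. It was -2.65 for Usp17l5 (adjusted p = 0.0181, limma), -1.94 for Dub3 (adjusted p = 0.0327), -1.89 for Dub1 (adjusted p = 0.0328) and -1.85 for Dub2a (adjusted p = 0.0328). Because Dux KO and Double KO both lie at the floor, the term repeats the change from WT to Smchd1 KO with its sign turned (2.65 and -2.65 for Usp17l5) and adds little to it. The calls depend on the scale. With edgeR and with DESeq2 on the recovered reads 0 of 4 passed, and with a pseudocount of 0.1 only 1 did. Without any 1 of the WT replicates, or without Dux KO replicate 2, none passed, and without Smchd1 KO replicate 1 or 2 or Double KO replicate 1 only 1 did.

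In cells without the Tet enzymes, the further loss of Smchd1 moved 0 of 4 members past the threshold, in a comparison where 17.1% of all tested genes rose and 20.6% fell. The difference of quad KO from Tet TKO was -0.31 for Usp17l5 (95% interval -1.25 to 0.63, adjusted p = 0.582, limma) and -0.50 for Dub3 (-1.23 to 0.23, adjusted p = 0.245). It was -0.11 for Dub1 (-0.92 to 0.71, adjusted p = 0.835) and -0.02 for Dub2a (-0.69 to 0.65, adjusted p = 0.963). All 4 intervals include 0, and that of Dub3 reaches only to 0.23 above it, so equal levels are not shown. Whether the effect of Smchd1 loss differed from that in cells with Tet enzymes would cross the tables and was not tested. Without quad KO replicate 3, Dub3 fell by 0.84 (adjusted p = 0.00841). Without quad KO replicate 2, Usp17l5, Dub1 and Dub2a had differences of 0.20, 0.30 and 0.29 in place of the negative ones.

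**Figure D2:**
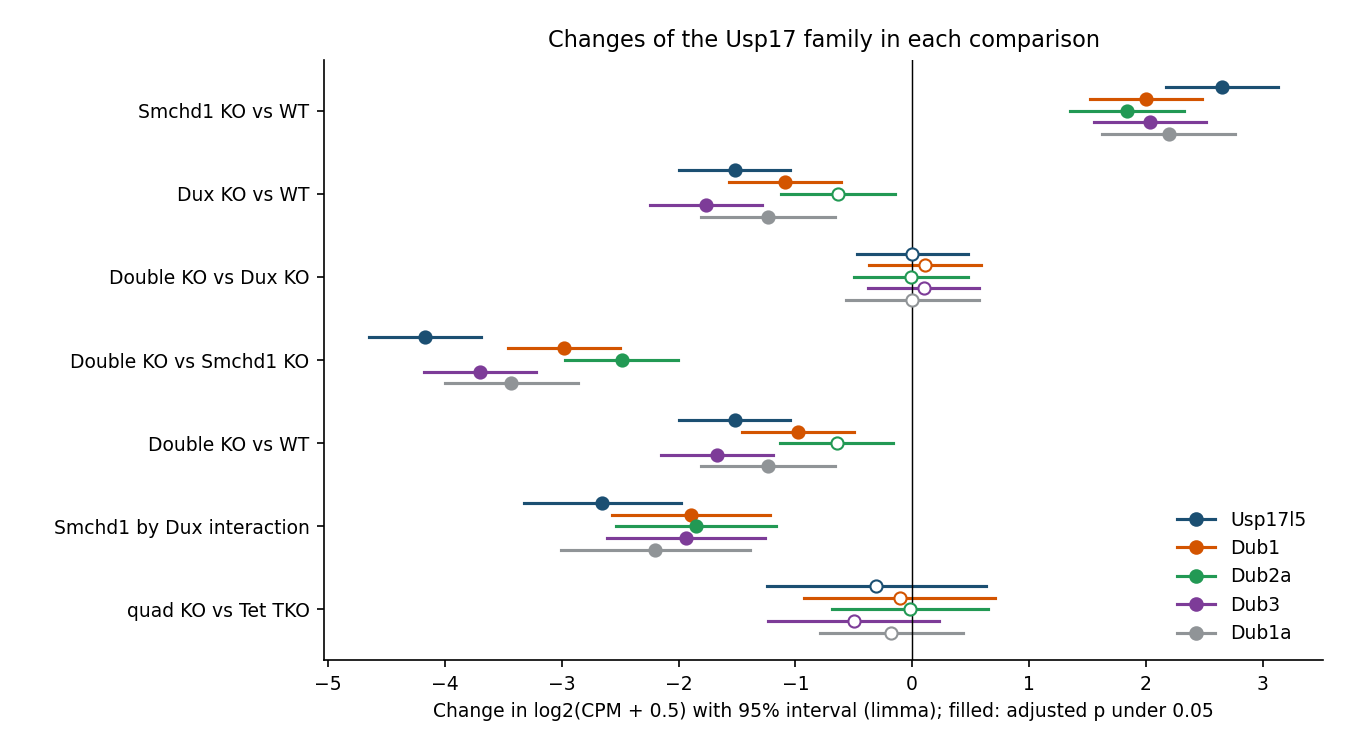
Change in log2(CPM + 0.5) with its 95% interval (horizontal axis) for each family gene in each comparison (vertical axis). Filled points passed at an adjusted p under 0.05. The members lie to the right of 0 in Smchd1 KO vs WT, at 0 in Double KO vs Dux KO, far to the left in Double KO vs Smchd1 KO, and with wide intervals around 0 in quad KO vs Tet TKO.

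The make-up of the family's reads was compared within samples, as the share of each of the 5 coding genes in their summed reads. Dub3 took 33.8% ± 0.658 of the reads in WT and 25.7% ± 1.52 in Smchd1 KO, and Usp17l5 took 24.8% ± 1.72 and 32.3% ± 1.87. For both genes the samples of the 2 genotypes did not overlap, with Usp17l5 at 23.8% to 26.8% in WT and at 30.3% in the lowest Smchd1 KO sample. With 3 samples against 3, an exact permutation test cannot give a p below 0.10, and none was run. Dub1, Dub2a and Dub1a took 14.9%, 8.44% and 18.0% in WT and 14.2%, 9.09% and 18.6% in Smchd1 KO. Dub3 was the largest in Tet TKO and quad KO as well, at 36.4% ± 0.385 and 31.6% ± 2.45. The share of Usp17l5 depends on how reads common to it and Dub2a were split.

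**Figure D3:**
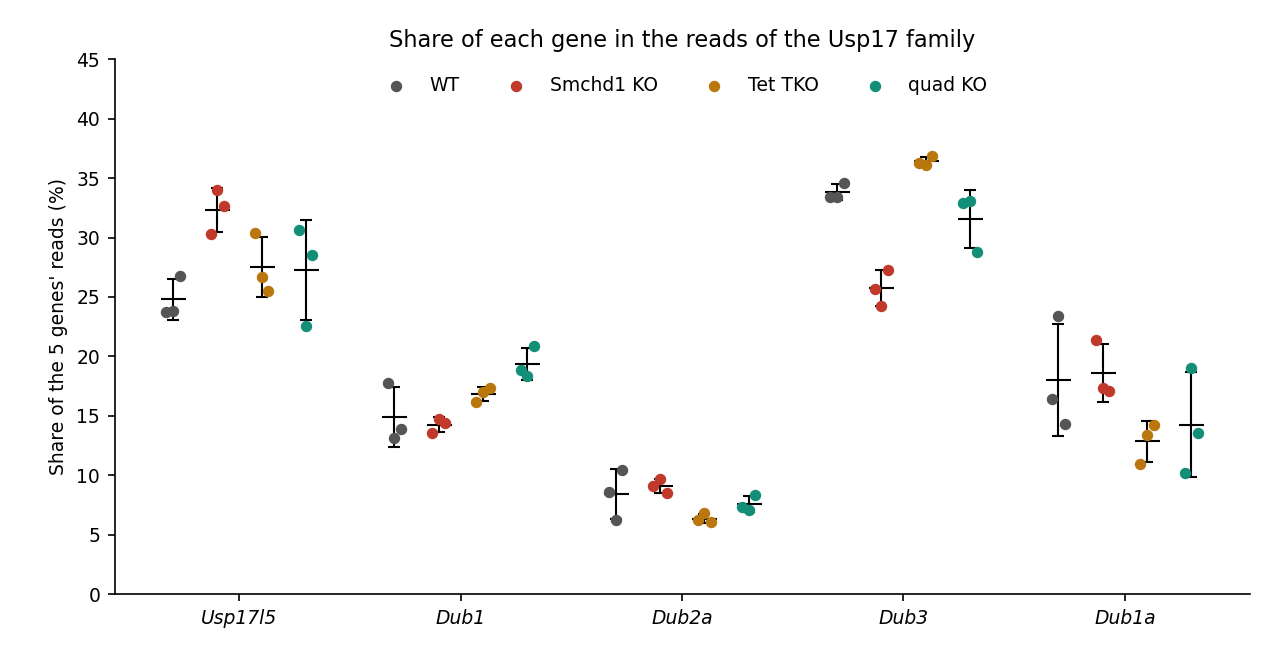
Share of each family gene in the reads of the 5 coding genes (vertical axis, percent), by gene (horizontal axis) and genotype, with 1 point per sample. Usp17l5 has a larger and Dub3 a smaller share in Smchd1 KO than in WT, and the other genes overlap between those genotypes.

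Some other measures moved with the spread between replicates. The summed level of the 4 members was 26.6, 25.7 and 14.3 CPM in the Smchd1 KO samples and 9.39, 4.07 and 16.1 CPM in the quad KO samples. The Dux transcript was at 0.833, 0.847 and 0.410 CPM in the same Smchd1 KO samples and at 0.501, 0.247 and 0.682 CPM in the quad KO samples. In the Tet TKO samples it was at 0.373, 0.207 and 0.492 CPM. The low samples of Smchd1 KO and quad KO were low in both measures, while the order of the Tet TKO samples differed between them. Of the 9 entries of endoderm markers, 8 had reads in Smchd1 KO, with sums of 435, 299 and 1201 CPM, so replicate 3 was highest there and lowest for the family. Trophoblast marker sums there were 87.4, 101 and 183 CPM. All 7 entries of trophoblast markers had reads in quad KO, with sums of 423, 515 and 267 CPM, the reverse of the family's order. Endoderm marker sums in quad KO were 31.4, 26.6 and 27.9 CPM, with replicate 2 lowest as for the family. The remaining Smchd1 transcript was at 18.1, 12.2 and 40.02 CPM in quad KO, in the family's order, and at 46.2, 76.5 and 58.5 CPM in Smchd1 KO, in another order. In WT the marker sums were 348 to 369 CPM for endoderm and 69.2 to 73.9 CPM for trophoblast. The part of these cell types and of the remaining Smchd1 transcript in the result was not tested. Blood cell markers summed to 11.6 to 25.1 CPM over all 18 samples, and Hbb-b1 was at or near 0. In bulk RNA, a change in the number of cells that express the family cannot be told apart from a change in RNA per cell.

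Few genes around the family were detected. Between the outermost family genes, Dub2a and Dub1, lie 94 other genes with an entry, of which 60 are olfactory receptors, 11 are Trim genes and 7 are globins. No read was found in either table for 63 of them, 51 of these being olfactory receptors. For the first table, 4 of the 94 passed the filter (Trim6, Trim34a, Trim34b and Trim12c), and 0 of these 4 passed the test in Smchd1 KO against WT. Trim6, a ubiquitin ligase and the highest of them, was at 301 ± 5.30 CPM in WT samples and 232 ± 15.7 CPM in those of Smchd1 KO. Of the 53 genes nearest to the family genes, up to 10 on each side of each, 42 had no read in either table and none passed the filter. Among 1206 other tested genes of chromosome 7, 5 rose and 0 fell in Smchd1 KO, with a median change of 0.04. Over all tested genes, 0.648% rose and 0.241% fell in that comparison. In quad KO against Tet TKO, 1 of the 4 tested genes between the outermost members rose, where 17.1% of all tested genes did.

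**Figure D4:**
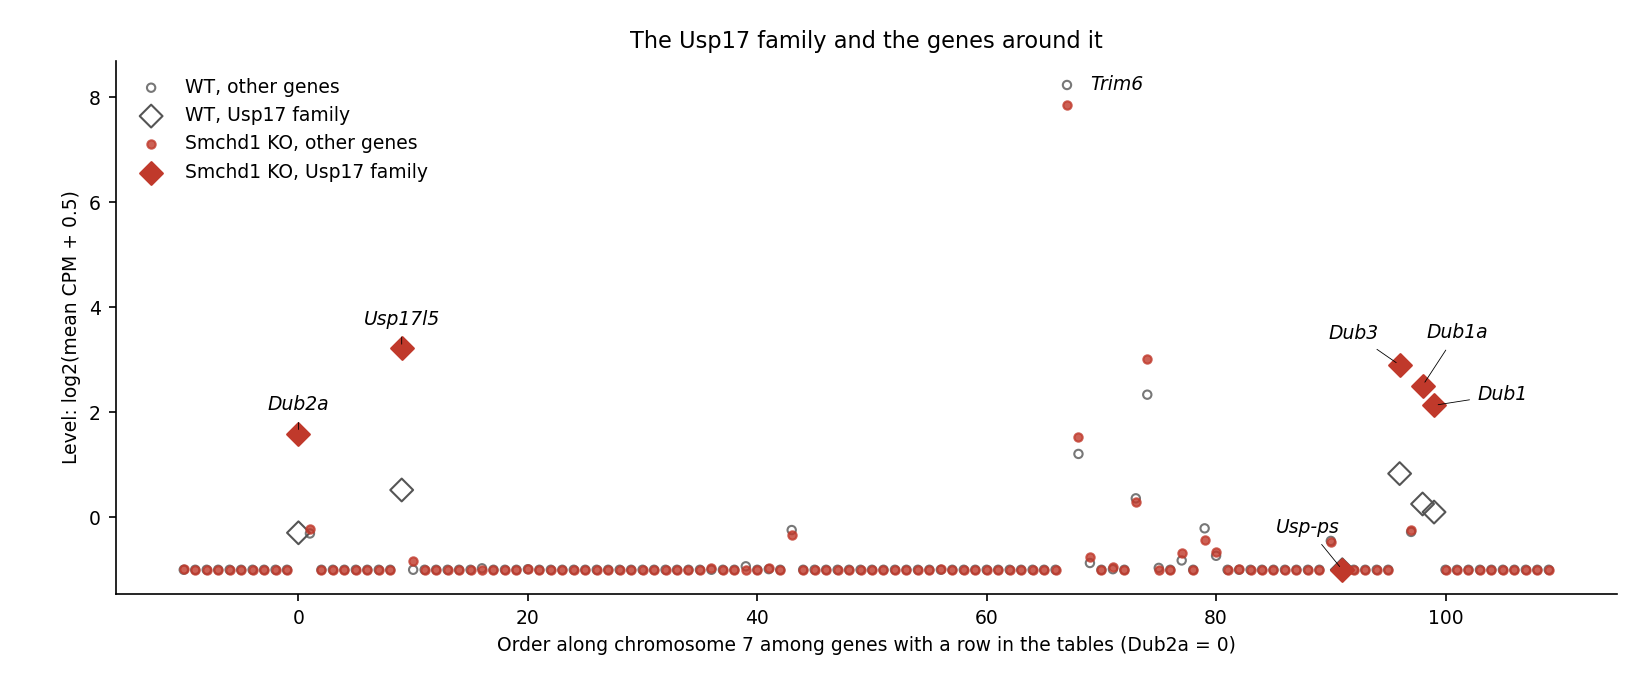
Level as log2(mean CPM + 0.5) (vertical axis) of the family genes and of the genes around them, by their order along chromosome 7 with Dub2a at 0 (horizontal axis). The 5 coding genes of the family stand higher in Smchd1 KO than in WT, the pseudogene Usp-ps and most other genes lie at the floor in both, and Trim6 has the highest level.

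Genes with the pattern most like that of Usp17l5 were taken by Pearson correlation of log2(CPM + 0.5), as a description. Over the 12 samples of the first table, the 10 nearest were Dub1, B020004J07Rik, Gm12800, Gm12794, Gm2016, BB287469, Tmem92-ps, Gm4971, Zscan4f and Ubtfl1, with r from 0.997 to 0.995. Zscan4f is a zinc-finger gene known for its bursts in 2-cell-like ES cells. Dub1a, Dub3 and Dub2a came at ranks 12, 17 and 30 of 16199 genes. What these samples share is the same 4 genotype groups, with large steps between them. Over the 6 samples of the second table the nearest were Nkx1-2 (r = 0.992), Arhgef26, Ttc30b, 1700007K13Rik, BB287469, Ints9, Bcl11b, Taf6l and Mfsd10 (r = 0.983). BB287469 stood among the 10 in both tables. Dub3, Dub1, Dub2a and Dub1a came at ranks 40, 41, 98 and 823 of 14919 there.

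Other genes of the 2-cell programme were read from a list of 40 symbols, with 37 entries, of which 25 were tested for the first table. In Smchd1 KO against WT 22 of 25 rose and 0 fell, beside 0.648% and 0.241% of all tested genes. The median change was 1.90. Of the 25, 13 passed the filter only through the Smchd1 KO samples, and 12 of those rose, so their direction was largely set by the filter. Of the other 12, 10 rose. Gm8994 went from 2.55 to 19.95 CPM, Gm5662 from 2.24 to 20.6, Gm8300 from 1.97 to 15.1 and Zscan4f from 1.11 to 7.40. The list was chosen with results of these samples known and is not independent evidence of direction. In Dux KO 0 of 25 rose and 11 fell against WT, beside 1.63% and 2.35% of all tested genes, with a median change of -1.02. In Double KO 0 rose and 11 fell against WT, beside 0.685% and 0.889% of all tested genes. In Double KO 0 of 25 passed against Dux KO, where 0.00617% of all tested genes rose and 0.00617% fell. Against Smchd1 KO 23 of 25 fell, beside 2.98% of all tested genes, with a median change of -3.08. For the 13 that passed the filter only through Smchd1 KO, the direction of this fall was also largely set by the filter. The interaction was negative past the threshold for 16 of 25, beside 0.358% of all tested genes, with the same limit as for the family. This count became 0 with a pseudocount of 0.1. Without WT replicate 1, the fall in Dux KO and in Double KO against WT held for 2 genes each.

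In quad KO against Tet TKO, 1 of 20 tested 2-cell-stage genes rose and 4 fell, with a median change of -0.42, where 17.1% of all tested genes rose and 20.6% fell. The share that fell is thus near that of all genes. Pramel6 fell from 9.01 to 0.0469 CPM, Pramel7 from 9.83 to 0.195, Usp26 from 26.1 to 6.996 and Gm2016 from 0.995 to 0.367. Zfp951 rose from 10.7 to 17.9 CPM. The summed level of the 37 entries was 113 to 119 CPM in Tet TKO samples and 79.7, 44.5 and 108 CPM in those of quad KO, the same order of samples as for the Usp17 sum. The WT samples summed to 35.3 to 38.4 CPM and those of Smchd1 KO to 225, 226 and 115 CPM. In Double KO it was 9.65, 5.57 and 38.5 CPM, and 35.5 CPM of the last sample came from Zfp951 alone.

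**Figure D5:**
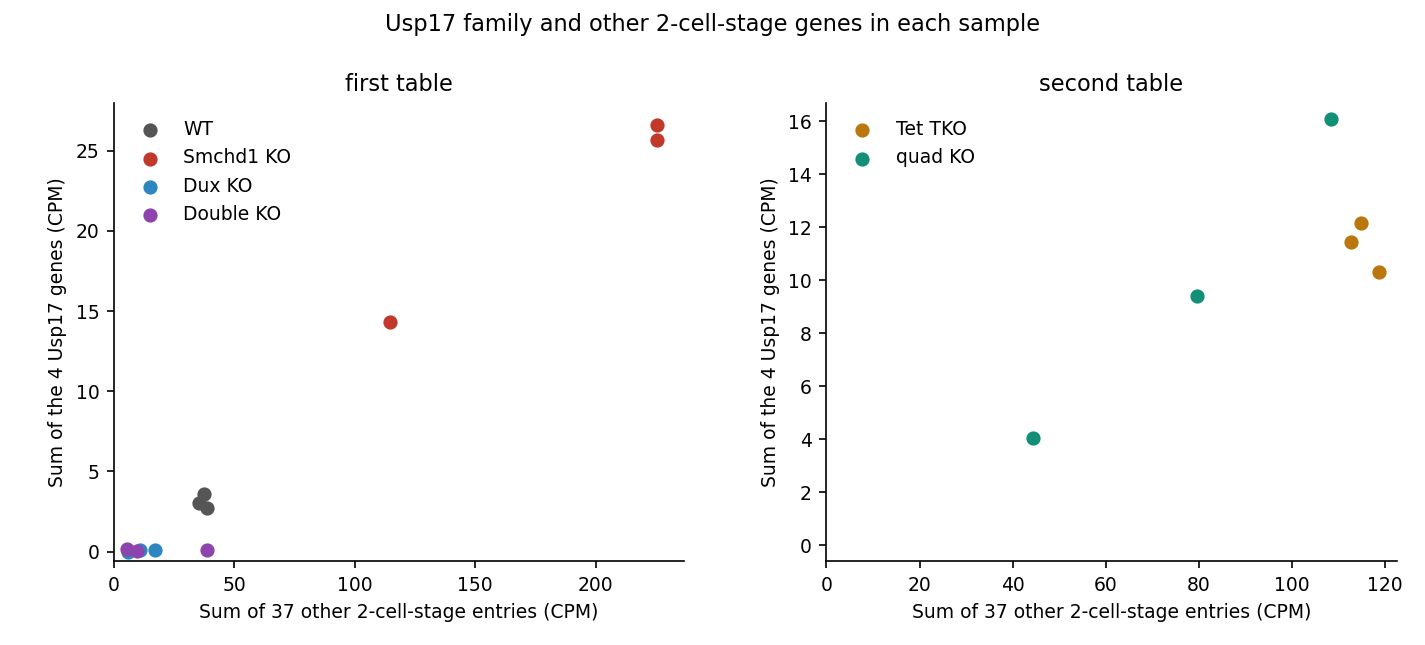
Summed level of the 4 Usp17 genes (vertical axis, CPM) against that of 37 other 2-cell-stage entries (horizontal axis, CPM), with 1 point per sample and 1 panel per table. Smchd1 KO samples lie at the upper right and Dux KO and Double KO samples at the bottom left, where the Double KO sample at 38.5 CPM is set apart by Zfp951.

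No other deubiquitinase passed in Smchd1 KO in the fit over all 4 genotypes. Of 50 tested other genes of the USP class, 0 rose and 0 fell in Smchd1 KO against WT, with a median change of -0.03. Of all tested genes 0.648% rose and 0.241% fell, so 0 of 50 is near that share. When the other genotypes were left out of the fit, 27 of them passed, as did 6763 of all genes. In Dux KO, Usp48 rose from 325 to 537 CPM, and Usp26 fell from 13.7 to 2.14, Usp39 from 195 to 112 and Usp12 from 77.8 to 56.0. In Double KO 0 of 50 passed against Dux KO, and against WT Usp26 alone fell. Against Smchd1 KO, Usp19 rose and Usp26, Usp9y and Usp28 fell, with Usp26 going from 25.04 to 1.81 CPM. Usp26 is a USP gene that is also in the list of 2-cell-stage genes. Of 31 tested deubiquitinases of other classes, 0 passed in any comparison of the first table except Josd1, which fell in Dux KO. Of all tested genes, 1.63% rose and 2.35% fell in Dux KO. In Double KO the shares were 0.685% and 0.889% against WT, 1.40% and 2.98% against Smchd1 KO, and 0.00617% each way against Dux KO. In quad KO against Tet TKO 6 of 49 other USP genes rose and 14 fell, beside 17.1% and 20.6% of all tested genes.

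Genes tied to the proteins' known roles were read from lists of reported substrates and partners, of cytokine receptors with JAK-STAT signalling, which acts upstream of Dub1 and Dub2 in blood cells, and of ubiquitin with its activating enzymes. In Smchd1 KO against WT, 0 of 23, 0 of 19 and 0 of 9 tested genes passed, where 0.648% of all tested genes rose and 0.241% fell. In Dux KO against WT, Tmem173, which encodes the innate immune adaptor STING, fell from 3.33 to 0.553 CPM and was the single call in the 3 lists. In Double KO, H2afx, a histone variant of DNA damage signalling, fell against Smchd1 KO and WT. Socs3, a feedback inhibitor of JAK-STAT signalling, fell from 186 to 93.2 CPM in Double KO against Smchd1 KO. Of all tested genes, 2.35% fell in Dux KO, and in Double KO 0.889% fell against WT and 2.98% against Smchd1 KO. In quad KO against Tet TKO, 4 of 23 substrates and partners rose and 7 fell, among them Nanog, a core transcription factor of ES cells, which went from 265 to 52.4 CPM. Of 18 cytokine and JAK-STAT genes 4 rose and 5 fell, with Lifr, the receptor of LIF, and Socs3 lower and Pim1 and Socs2 higher. These counts stand beside 17.1% of all tested genes that rose and 20.6% that fell, and are no result about the lists.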

How the data were processed

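Total RNA depleted of ribosomal RNA was sequenced (KAPA HyperPrep with RiboErase, per the labels). Per the submitters' processing notes, Trim Galore, STAR 2.5.1 and limma 3.38.2 were used on build mm9. The read counter, the annotation and the treatment of reads that match several genes are not given in the sources used here. The values the authors deposited are a normalized signal per gene, named CPM, in 2 tables scaled separately, with column sums from 906871 to 1054030. Values below 200 reads were all (100%) whole reads to within 0.1, so reads were recovered. The second table holds 3 further columns of per-sample values, which were not used.

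Runs of 1 sample were averaged. The names of the Smchd1 KO columns do not pair the runs, so the 6 columns were paired by the lowest counting-noise ratio (summed 5.89 for the best and 10.9 for the next of 15 pairings). The main test was limma 3.58.1 under R 4.3.3 on log2(CPM + 0.5) (moderated test with intensity trend, two-sided, Benjamini-Hochberg over all genes), 1 mean per genotype, after a filter of 0.5 CPM in 3 samples. edgeR 4.0.16 and DESeq2 1.42.0 on recovered reads were alternatives, beside other pseudocounts, filters and scalings, single runs, 2-genotype fits and left-out samples. The procedure was tested on simulated data, with the same dispersion in every gene and genotype. No genotype was given more spread or placed near the floor, unlike in these data, so that test does not cover the family's case. A level limit is 3 reads over a genotype, and intervals are 95%. The tables pair gene identifiers with symbols, and 32620 entries matched the reference by identifier, which gave gene order only.

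The members and lists were chosen with earlier results of these data known. Genes named are the members, other family entries, neighbours as a list, the 10 genes most like Usp17l5 in each table (1 of those in the second table is not reported here), and in each list up to 4 with the smallest p and those that passed. Trim6 and the other Trim genes were named after their values were seen.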

Additional observations from a re-analysis of the deposited data

Results flagged for a closer look

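The interaction term in limma on log2(CPM + 0.5), the change from Dux KO to Double KO minus that from WT to Smchd1 KO, passed for all 4 members and was -2.65 for Usp17l5, -1.94 for Dub3, -1.89 for Dub1 and -1.85 for Dub2a. With 2 reads of the 4 members in Dux KO and 6 in Double KO, the ratio of Double KO to Dux KO is poorly defined, the term mostly repeats the change from WT to Smchd1 KO with its sign turned, and 0 of 4 passed with edgeR or DESeq2. Genotypes had 3 samples each, so single samples were not tested as outliers.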

How the results depend on the processing

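The rise of the members in Smchd1 KO and their fall in Double KO against Smchd1 KO passed under every alternative that tested a member. These included edgeR and DESeq2, each left-out replicate and the fits without the 4 samples with a chromosome shifted by more than 0.4. Those last fits were chosen after seeing the data. Dub2a was tested in 20 of the 25 alternatives of each comparison. It failed the filter without any 1 Smchd1 KO replicate, without the shifted samples and at 2 CPM, so those fits held the other 3 members. Of 163 counts of called members under an alternative, 143 stayed within 1.5 times the value reported, 19 were lower and 1 was higher. A pseudocount of 2 left 1 call of 3 in Dux KO and 1 of 3 in Double KO against WT. Leaving out 1 replicate gave 0 to 3 calls in both of these comparisons, 0 to 4 for the interaction and 0 to 1 in quad KO against Tet TKO. The interaction had 1 call with a pseudocount of 0.1, 1 of 3 with a filter of 2 CPM, and 0 with edgeR and DESeq2. The cause was not tested. Double KO against Dux KO could not be fitted to 2 genotypes alone, because no member passed the filter there.

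Values near 0 changed sign. With 1 replicate left out, Dub2a in Double KO against Dux KO ranged from -0.0668 without Double KO replicate 2 to 0.0555 without Dux KO replicate 1, and was 0.0164 without Double KO replicate 1 or 3, while over all alternatives its lowest value was -0.180. In quad KO against Tet TKO, Dub2a was 0.0128 with a pseudocount of 2, 0.0141 with quantile normalization, 0.119 with edgeR, 0.122 with DESeq2, 0.0211 without Tet TKO replicate 2, and from -0.345 without quad KO replicate 3 to 0.285 without quad KO replicate 2. Dub1 was 0.0582 with edgeR, 0.0619 with DESeq2, and from -0.516 to 0.297 without those 2 replicates in turn, and Usp17l5 was from -0.721 to 0.196. The interaction of Dub1 was 1.07 with edgeR.

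With the replicate number as a block, 4, 3, 0, 4, 2, 4 and 0 members passed in Smchd1 KO, Dux KO, Double KO against Dux KO, Double KO against Smchd1 KO, Double KO against WT, the interaction and quad KO. In the first table, the deviations of same-numbered samples correlated at r from -0.42 to 0.47 in 18 pairs, over 0.1 in 6. In the second table r ran from -0.03 to 0.02. Pairs with different numbers were not compared, so whether the numbers mark a pairing was not tested. The main test did not use them.

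Counts over all genes moved far more: 144 in Smchd1 KO (37 without Smchd1 KO replicate 3, 6763 fitted to 2 genotypes alone), 644 in Dux KO (2 without WT replicate 1, 5394 without the shifted samples), 2 in Double KO against Dux KO (0 to 3307), 709 against Smchd1 KO (50 to 5671), 255 against WT (2 to 6703), 83 for the interaction (0 to 1634) and 5619 in quad KO (3329 to 7520). On recovered reads, edgeR called 178 higher and 52 lower in Smchd1 KO, and DESeq2 643 and 441.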
